A study of Mus musculus with 36 samples.

Results

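Krt7, Krt8, Krt18, Krt19 and Krt20, the keratins of simple epithelia and of the umbrella cells that line the bladder, were followed through 36 mouse RNA sequencing libraries of bladder tumour models. The 5 genes were taken by symbol from the 21705 genes of the deposited table, and all 5 were present, among 51 keratin genes in all. Every one of them passed the filter on low values in each comparison (10 or more deposited units in a number of libraries no lower than the size of the smaller group).

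The libraries fell into 9 groups. The UPPL primary group held 9 bladder tumours from mice labelled untreated and Upk3a-CreERT2. Their labelled alleles included floxed Trp53 (p53f/f) and Rosa26LSL-Luc. The recombinase is driven by the promoter of a uroplakin gene of superficial urothelium. The BBN primary group held 11 bladder tumours from mice of genotype Ctrl given N-butyl-N-(4-hydroxybutyl)nitrosamine, a bladder carcinogen. Line-derived tumours were grown from 1 line of each model and came from animals labelled untreated: 4 from line UPPL1541, which carry the UPPL genotype label, 2 from line BBN963 and 4 from MB49, both labelled Ctrl. The cultures were 1 each of UPPL1541, BBN963 and MB49, and 3 lines named KT1044, KT1970 and KT1975, all labelled Ctrl and untreated. That the UPPL1541 culture is labelled Ctrl differs from its tumours, and the meaning of KT is not given in the sources used here. The age of the mice and the site of implantation are not given in the sources used here either, and tumours of 1 line are not independent lines. The libraries held 9294385 to 17926593 recovered reads. Every value is an RSEM gene estimate in deposited units, in which the upper quartile of the values above 0 of a library stands at 1000.

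Keratins are the intermediate filament proteins of epithelial cells and are built from pairs, each of a type I and a type II chain. Krt8 (type II) and Krt18 (type I) are the pair of simple, single-layered epithelia, and the urothelium carries them together with Krt7 (type II) and Krt19 (type I). Krt20 is a type I keratin that in normal bladder marks umbrella cells, the large superficial cells whose apical membrane is covered by uroplakin plaques. Basal urothelial cells instead build Krt5 and Krt14, and squamous epithelium adds Krt1, Krt10 and Krt6 chains.

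In the mouse genome (RefSeq, GRCm38.p6) the type II gene Krt8 lies at chr15:101996711-102004342 and its type I partner Krt18 at chr15:102028216-102032026, 23.9 kb apart and read in opposite directions away from each other. Krt7 lies at chr15:101412403-101427806, Krt19 at chr11:100140810-100145926 and Krt20 at chr11:99428385-99438153. The build named in the submitters' processing notes is mm9, and the table carries no coordinates. Krt8 has a processed copy, Krt8-ps, so that some of its reads could be shared, and how these were counted is not given in the sources used here.

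The 250 bases before the start of Krt8, Krt18 and Krt20 (RefSeq, GRCm38.p6) are shown because Krt8 and Krt18 differed together between groups while Krt20 differed in another way. Capitals mark matches on either strand to 7 motifs. The TATA box was searched as TATAAA, and the GC box of Sp factors as GGGCGG. The site of AP-1 factors was searched as TGANTCA, and that of grainyhead-like factors as AACNNGTT. Forkhead factors were searched by TGTTTNC and zinc finger factors of the Gata family by AGATAA. The half-site of nuclear receptors was searched as AGGTCA. No matches overlapped.
Krt8, chr15:102004343-102004592, minus strand: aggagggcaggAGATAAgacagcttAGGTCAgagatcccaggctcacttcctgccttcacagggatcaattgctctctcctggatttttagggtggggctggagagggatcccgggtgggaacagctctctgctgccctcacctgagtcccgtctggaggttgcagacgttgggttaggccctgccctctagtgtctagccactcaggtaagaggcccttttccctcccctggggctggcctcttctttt
Krt18, chr15:102027966-102028215, plus strand: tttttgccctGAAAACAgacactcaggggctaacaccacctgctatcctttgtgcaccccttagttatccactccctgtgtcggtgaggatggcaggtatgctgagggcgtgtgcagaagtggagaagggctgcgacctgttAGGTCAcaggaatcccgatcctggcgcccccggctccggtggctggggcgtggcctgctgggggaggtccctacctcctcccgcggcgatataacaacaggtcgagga
Krt20, chr11:99438154-99438403, minus strand: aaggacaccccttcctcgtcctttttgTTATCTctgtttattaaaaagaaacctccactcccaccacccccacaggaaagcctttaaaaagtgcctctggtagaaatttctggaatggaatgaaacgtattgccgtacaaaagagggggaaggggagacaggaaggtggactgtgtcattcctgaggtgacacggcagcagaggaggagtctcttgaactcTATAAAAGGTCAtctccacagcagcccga

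AGGTCA was found in all 3 of these windows, and in 14.0 percent of the 32851 RefSeq promoter windows of the same length. TATAAA was found in the Krt20 window, 29 bases before the start, and in 12.4 percent of all windows. AGATAA or its reverse complement was found in the windows of Krt8 and Krt20 and in 10 percent of all windows, and TGTTTNC, on the minus strand, in that of Krt18 and in 17.8 percent. The Krt7 window held GGGCGG at 4 positions and none of the other 6 motifs; GGGCGG was found in 32.7 percent of all windows. TGANTCA (6.70 percent of all windows) and AACNNGTT (3.60 percent) were in none of the 4 windows. A match describes the letters only.

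The keratins did not follow a single order over the groups. By mean log2 level, Krt7 was highest in UPPL primary tumours (35085 ± 18074 units, SD, n = 9), and the ranges of UPPL primary tumours, KT cultures (35260 ± 23017, n = 3) and BBN primary tumours (26730 ± 9993, n = 11) overlapped. Krt8 was highest in KT cultures (13441 ± 5403), with overlapping ranges in MB49 line-derived tumours (10685 ± 2195, n = 4) and UPPL primary tumours (11732 ± 7100), and lowest in BBN line-derived tumours (92.1 ± 10.1, n = 2). Krt18 ran from KT cultures (15789 ± 9754) down to the same BBN line-derived tumours (137 ± 48.6). Krt19 was at the top in the UPPL1541 culture (23306) and UPPL primary tumours (26820 ± 11082), whose ranges overlapped, and was listed at 0 in the MB49 culture. Krt20 alone had its highest level in a line-derived group, the UPPL line-derived tumours (4277 ± 1198, n = 4), which did not overlap the next group, UPPL primary tumours (947 ± 695). BBN primary tumours (1036 ± 1140) did overlap them, with a highest value of 3538 against a lowest of 3140 in UPPL line-derived tumours. These levels count reads without regard to gene length, so they order the groups for 1 gene and not the genes among themselves.

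**Figure D1:**
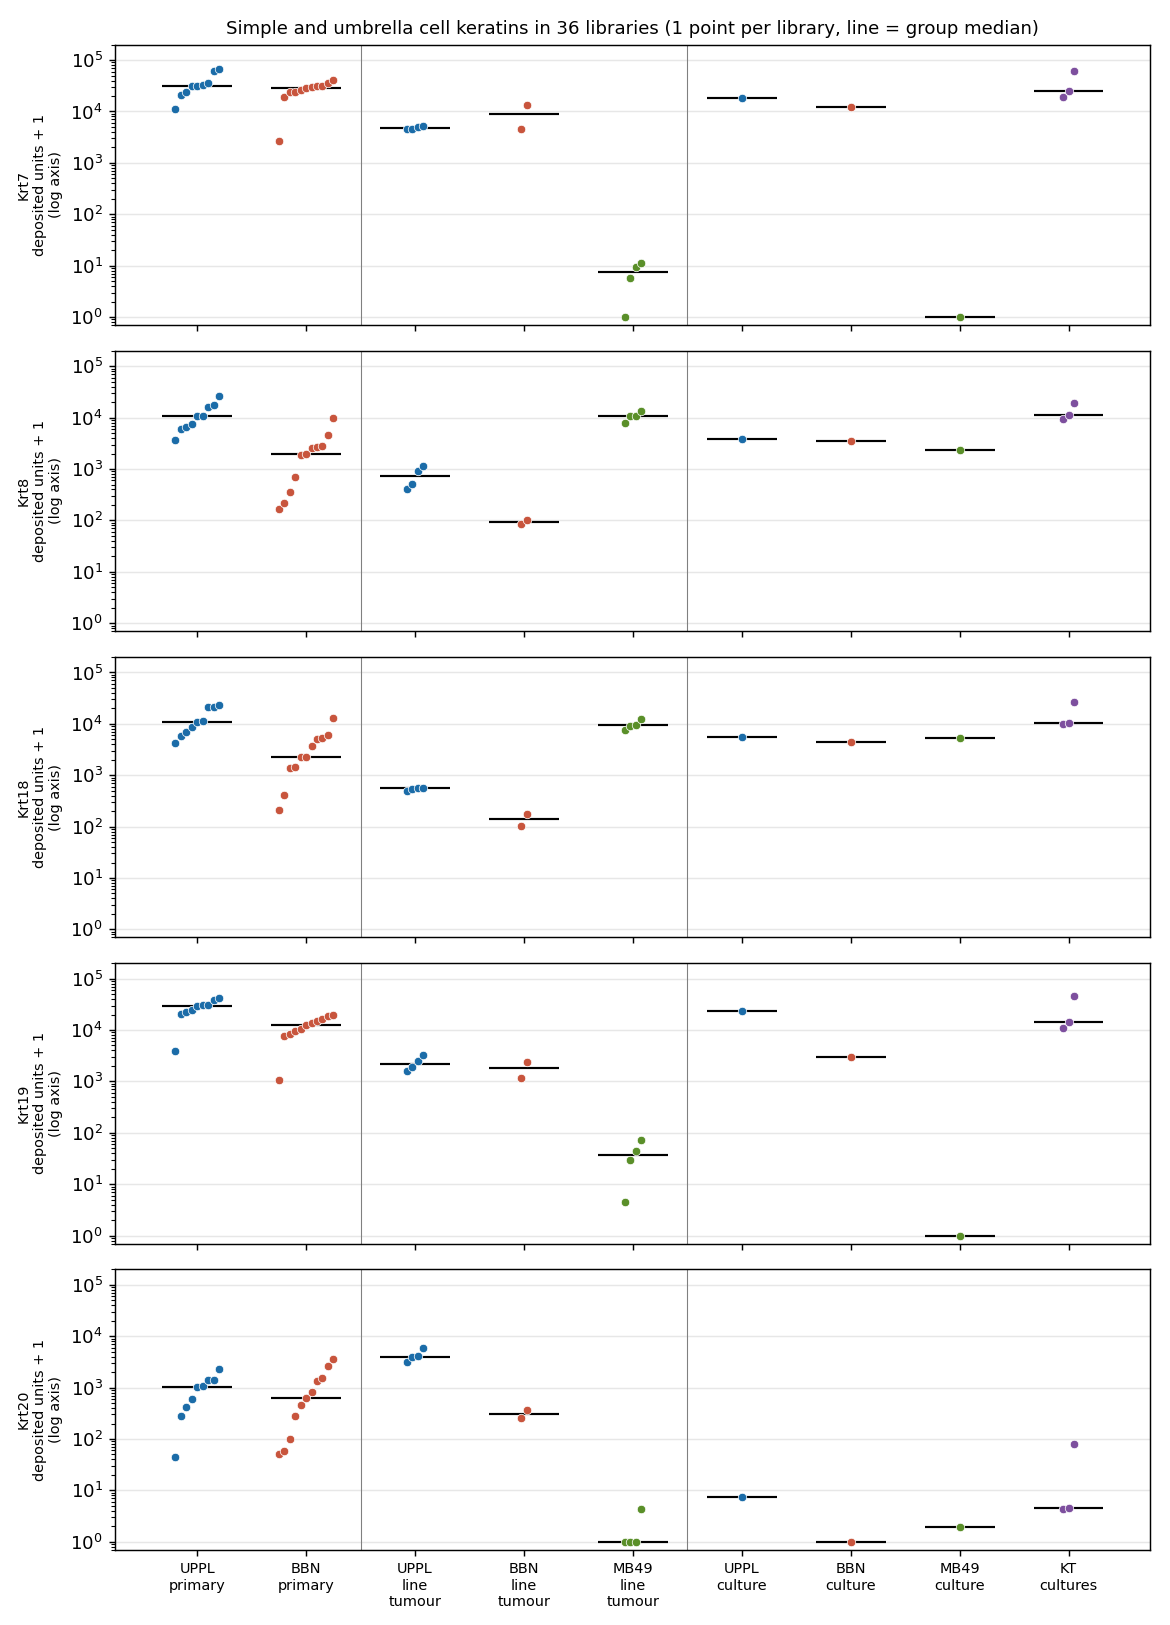
Level of each keratin in every library, in deposited units plus 1 on a log axis, with 1 point per library and a line at the group median. Krt8 and Krt18 fall from the primary tumours to the UPPL and BBN line-derived tumours. They stand at 7684 to 13395 in MB49 tumours, where Krt7, Krt19 and Krt20 are at or near 0. The group median of Krt20 is highest in the 4 UPPL line-derived tumours (3140 to 5966), a range that the primary tumour BBN965 (3538) enters. Krt20 is low in all 6 cultures.

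Among primary tumours, the Krt8 and Krt18 pair was higher in UPPL than in BBN. Krt8 had a lowest value of 3716, a median of 10715 and a highest value of 26205 in the 9 UPPL tumours, against 169, 1967 and 9905 in the 11 BBN tumours. The groups overlapped: 5 of 9 UPPL tumours lay above every BBN tumour, and 9 of 11 BBN tumours lay below every UPPL tumour, with BBN969 the highest of the BBN group. The log2 fold change of Krt8, UPPL over BBN, was 2.87 (SE 0.618, 95% interval 1.59 to 4.15, limma adjusted p = 0.0034). Krt18 had 4161, 10892 and 23745 in UPPL tumours (lowest, median, highest), against 207, 2307 and 12868 in BBN tumours. Krt18 was higher by 2.27 (SE 0.585, interval 1.05 to 3.48, adjusted p = 0.010), with 3 of 9 UPPL tumours above every BBN tumour. These 2 of the 5 keratins passed at an adjusted p under 0.05, as did 18.5 percent of the 12818 genes tested, 5.71 percent higher and 12.8 percent lower. The higher share of all calls was 30.9 percent with the deposited scaling (median log2 fold change of all genes -0.19) and 50.1 percent under quantile normalization. No keratin separated the models without overlap; 0.296 percent of genes did so with UPPL higher and 0.39 percent with UPPL lower. In bulk tumours, fewer cells of a type and less RNA per cell cannot be told apart.

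The other 3 keratins did not pass between the models. Krt19 had 3953, 28895 and 42356 in UPPL tumours (lowest, median, highest), against 1054, 12412 and 19802 in BBN tumours. All UPPL tumours but UPPL1595 lay above every BBN tumour, and the log2 fold change was 1.21 (SE 0.457, interval 0.26 to 2.15, adjusted p = 0.068). Without UPPL1595 it was 1.53 (adjusted p = 0.013), and it passed also under median-of-ratios scaling (adjusted p = 0.044) and in edgeR on recovered reads (adjusted p = 0.024). Krt7 had 11390, 31951 and 66528 in UPPL tumours, against 2607, 29124 and 40334 in BBN tumours, with a log2 fold change of 0.44 (interval -0.40 to 1.28, adjusted p = 0.47). Krt20 had 44.2, 1045 and 2293 in UPPL tumours, against 50.6, 631 and 3538 in BBN tumours, so that each group spanned most of the other. The log2 fold change of Krt20 was 0.37 (interval -1.28 to 2.02, adjusted p = 0.78), and edgeR gave -0.0031.

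**Figure D2:**
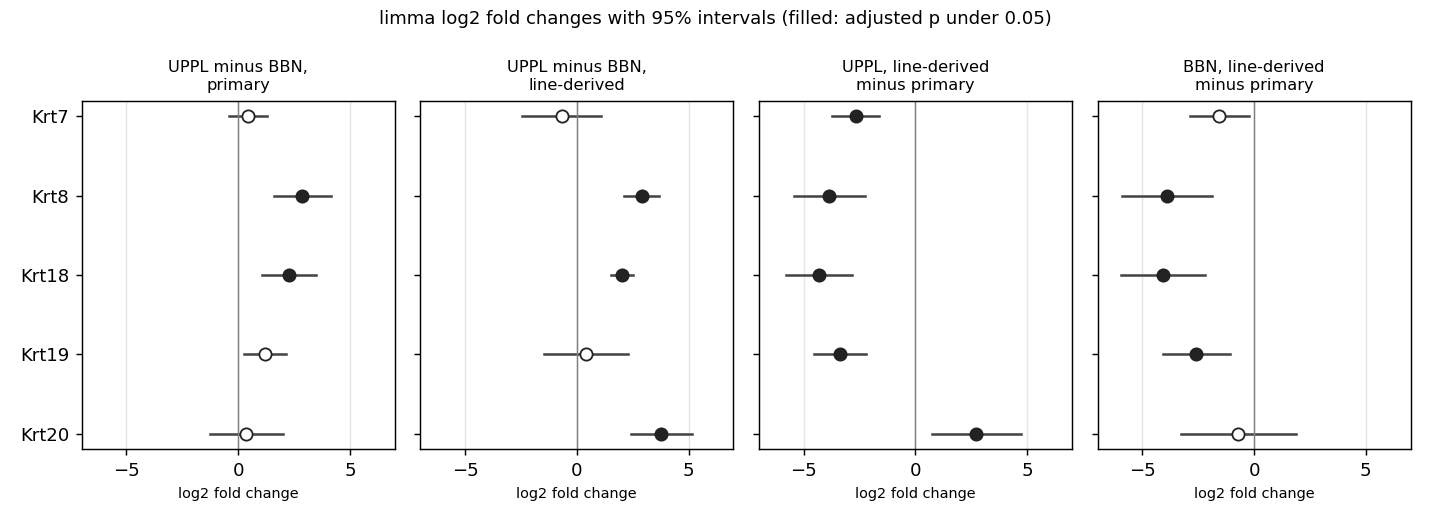
log2 fold change of each keratin (x axis) with its 95% interval in 4 comparisons, from limma on log2(value + 1); filled points passed at an adjusted p under 0.05. Krt8 and Krt18 pass in all 4, positive for UPPL over BBN and negative for line-derived over primary tumours, and Krt20 is positive in UPPL line-derived over primary tumours (2.72).

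Within the UPPL primary tumours Krt8 and Krt18 went together. Over the 9 UPPL tumours their log2 levels had Pearson r = 0.939 and Spearman rho = 0.933 (exact permutation test, adjusted p = 0.0064 and 0.015 over the 20 relations of 10 pairs in 2 models). Without UPPL1595 and UPPL1694, the tumours farthest from the median of Krt8, r was 0.921 (exact permutation p = 0.0079, adjusted p = 0.057). In the 11 BBN tumours the same pair had r = 0.652 and rho = 0.564 (permutation test, adjusted p = 0.14 and 0.22), and r = 0.483 without BBN974 and BBN972. The ratio of Krt18 to Krt8 was 0.802 to 1.47 over UPPL primary tumours and 0.515 to 14.5 over BBN primary tumours, with similar medians of 1.04 and 1.17. The highest ratio belonged to BBN963, which had 361 units of Krt8 and 5244 units of Krt18, followed by BBN974 at 8.30. UPPL1694 held the highest Krt8 (26205) and the lowest Krt7 (11390) of the UPPL tumours, and the lowest sum of 11 basal and stratified keratins (17725, against a UPPL median of 418012).

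**Figure D3:**
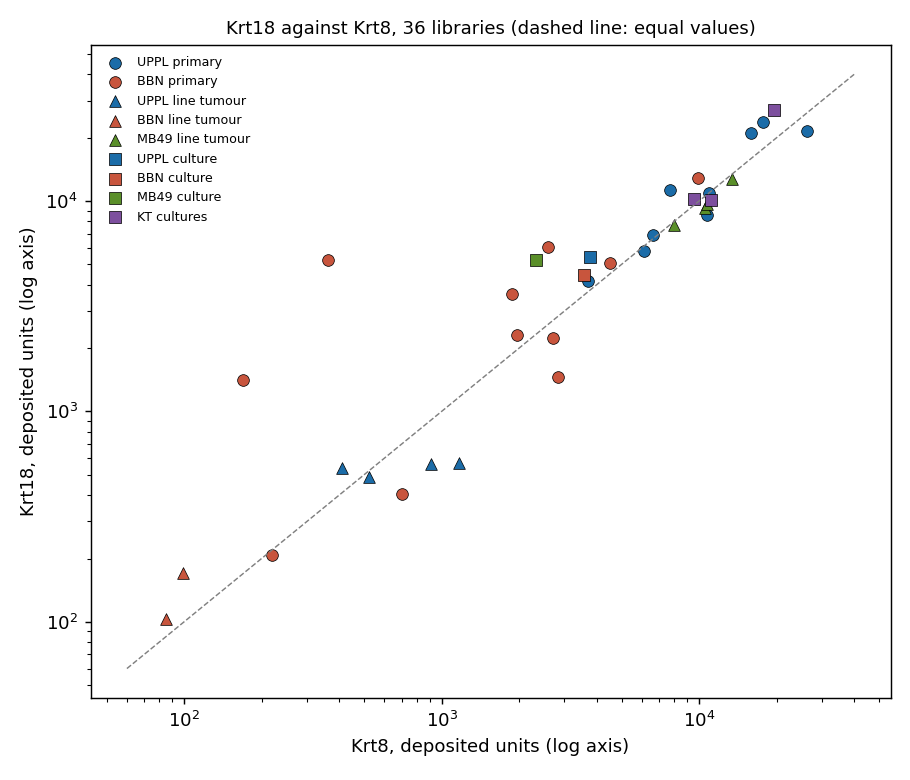
Krt18 against Krt8 in deposited units, both on log axes, with circles for primary tumours, triangles for line-derived tumours and squares for cultures, 1 per library, and a dashed line at equal values. Most libraries lie near the line over the whole range, and the primary tumours BBN963 and BBN974, with ratios of 14.5 and 8.30, lie farthest above it.

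In the BBN primary tumours Krt19 and Krt20 passed the test of correlation. Over 11 tumours they had r = 0.724 and rho = 0.809 (permutation test, adjusted p = 0.0073 and 0.037), and r = 0.654 without BBN972 and BBN964 (exact permutation p = 0.056, adjusted p = 0.14). Krt18 and Krt19 in BBN tumours had r = 0.70 and rho = 0.636 (permutation test, adjusted p = 0.11 and 0.16), and r = 0.815 without BBN972 and BBN965 (exact permutation p = 0.0087, adjusted p = 0.057). For Krt19 and Krt20 in UPPL tumours the sign was opposite, with r = -0.490 and rho = -0.783 (exact permutation test, adjusted p = 0.25 and 0.11), and the difference between the models was not tested. Tumour BBN972 had the lowest Krt7 (2607), Krt18 (207), Krt19 (1054) and Krt20 (50.6) of its group. Its summed level of 8 epithelial genes (42007) lay within the BBN range, its 11 basal and stratified keratins summed to 499710, and its smooth muscle markers summed to 25682, second of the 11. Without BBN972, the log2 fold changes of Krt8 and Krt18 between models were 2.60 and 1.92 (adjusted p = 0.0056 and 0.013). For Krt7 and Krt19 in BBN tumours, r was 0.841 with all tumours (permutation test, adjusted p = 0.22) and -0.775 without BBN972 and BBN962 (exact permutation p = 0.015, adjusted p = 0.061), so its sign rested on those tumours.

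The genes whose levels ran most like each keratin over the 20 primary tumours, centred within each model, were sought among 9796 genes with a mean of at least 100 units, by Pearson r. These likenesses are a description, and the 20 points share the scaling of their libraries. Nearest Krt8 were Ildr1, which encodes a protein of tricellular junctions (r = 0.858), Zfp667 (0.850) and Bcl2l14 (0.836). Nearest Krt18 were Tfcp2l1, an epithelial transcription factor gene (0.868), Scamp5 (0.865) and the uroplakin gene Upk2 (0.865). Krt7 ran most like Cmbl (0.823), Mrpl43, a mitochondrial ribosome gene (0.799), and the basal keratin gene Krt15 (0.796). Krt19 ran most like Exoc6, of the exocyst (0.868), Cmbl (0.860) and Xpnpep1 (0.805), with lower Spearman rho of 0.522, 0.654 and 0.687. The Spearman coefficient was 0.641 to 0.678 for the 3 genes nearest Krt7, and 0.623 to 0.889 for those nearest Krt8, Krt18 and Krt20. Nearest Krt20 were Cgn, which encodes cingulin of tight junctions (0.785), Rap1a (0.764) and Duoxa2, a maturation factor of a dual oxidase (0.738).

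Genes of the umbrella cell plaque stood higher in UPPL primary tumours while Krt20 did not pass. Among 10 umbrella cell genes there were 7 higher, 1 lower (Muc1, -2.69) and 2 that did not pass (median log2 fold change 3.56, against -0.19 over all genes). Upk1a, a uroplakin gene, averaged 7065 ± 5434 units in UPPL and 230.0 ± 342 in BBN tumours, and Upk1b averaged 15139 ± 13057 in UPPL and 1499 ± 1325 in BBN tumours (log2 fold changes 6.44 and 4.42, adjusted p = 0.00083 and 0.016). Upk3b and Tmem40 were the further members with the smallest adjusted p (5.98 and 0.81). Of 11 basal and stratified keratins only Krt17 passed, lower in UPPL (-4.80, SE 0.964, adjusted p = 0.0021), while Krt5 (-0.39) and Krt14 (-1.01) did not. Of 10 urothelial regulators, Pparg, a nuclear receptor gene of urothelial differentiation, was higher (2.92, adjusted p = 0.0016) and the other 9 did not pass, Gata3 among them (0.39). Among 14 genes whose proteins bind or anchor keratin filaments, Ppl (periplakin, 0.95) was higher and Fbf1 (-0.49) lower, and 12 did not pass, with desmoplakin (Dsp) at -0.03 and plectin (Plec) at 0.01.

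Markers of other cell types differed in part between the primary tumours. Of 8 epithelial genes 1 was higher in UPPL and 7 did not pass, Epcam (-0.52) and Cdh1 (0.27) among them. The summed level of the 8 epithelial genes was 45457 to 68058 in UPPL and 30926 to 65794 in BBN tumours. The 8 fibroblast markers summed to 414 to 7969 in UPPL (median 2047) and 350 to 56230 in BBN tumours (median 8368), with 2 of 8 lower in UPPL and none of the 8 at 0 throughout a group. Leukocyte markers summed to 254 to 1072 in UPPL and 613 to 3433 in BBN tumours, with 3 of the 5 tested lower in UPPL. Smooth muscle markers summed to a median of 1973 in UPPL (highest 42097) and 7706 in BBN tumours (highest 171574), with 2 of 7 lower in UPPL. The part of these differences in the keratin results was not tested.

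Tumours grown from the UPPL and BBN lines carried far less Krt8 and Krt18 than the primary tumours of the same model. Krt8 was 411, 913, 1166 and 522 in the 4 UPPL line-derived tumours, all below the lowest UPPL primary tumour (3716). The log2 fold change, line-derived over primary, was -3.85 (SE 0.766, interval -5.42 to -2.28, adjusted p = 0.00054). Krt18 was 541, 562, 571 and 486 in the same tumours, against a primary minimum of 4161, a log2 fold change of -4.31 (SE 0.716, adjusted p = 8.2e-05). Krt7 (4550 to 5327, against 11390 to 66528) and Krt19 (1625 to 3251, against 3953 to 42356) were also lower in the UPPL line-derived group than in UPPL primary tumours, by log2 fold changes of -2.67 and -3.36 (adjusted p = 0.00035 and 0.0001). All 4 of these keratins lay below every UPPL primary tumour, as did 3.32 percent of the 15229 genes tested. With Krt20 all 5 passed, against 26.5 percent of genes (20.5 percent higher and 5.98 percent lower).

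Krt20 went the other way in the UPPL line-derived tumours. It was 3140, 5966, 3934 and 4069 in these 4 tumours, each above the highest UPPL primary tumour (2293), as were 12.9 percent of genes, with a log2 fold change of 2.72 (SE 0.973, interval 0.72 to 4.72, adjusted p = 0.039). This call was lost in edgeR (1.93, adjusted p = 0.086), under median-of-ratios scaling (2.54, adjusted p = 0.060), and without any 1 of the 4 line-derived tumours or of the primary tumours UPPL1541, UPPL1597 and UPPL1695 (2.24 to 2.85, adjusted p = 0.054 to 0.10). The primary tumour whose number the line carries, UPPL1541, held 285 units of Krt20 and 17712 units of Krt8. The other umbrella cell genes did not share this direction in UPPL line-derived tumours. Among these 10 genes 7 were lower, and 3 did not pass. Upk1b averaged 8.87 ± 5.35 in line-derived and 15139 ± 13057 in primary tumours (-10.05, adjusted p = 2.3e-05). Upk3b was listed at 0 in all 4 line-derived tumours, against 2578 ± 1266 in primary tumours.

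**Figure D4:**
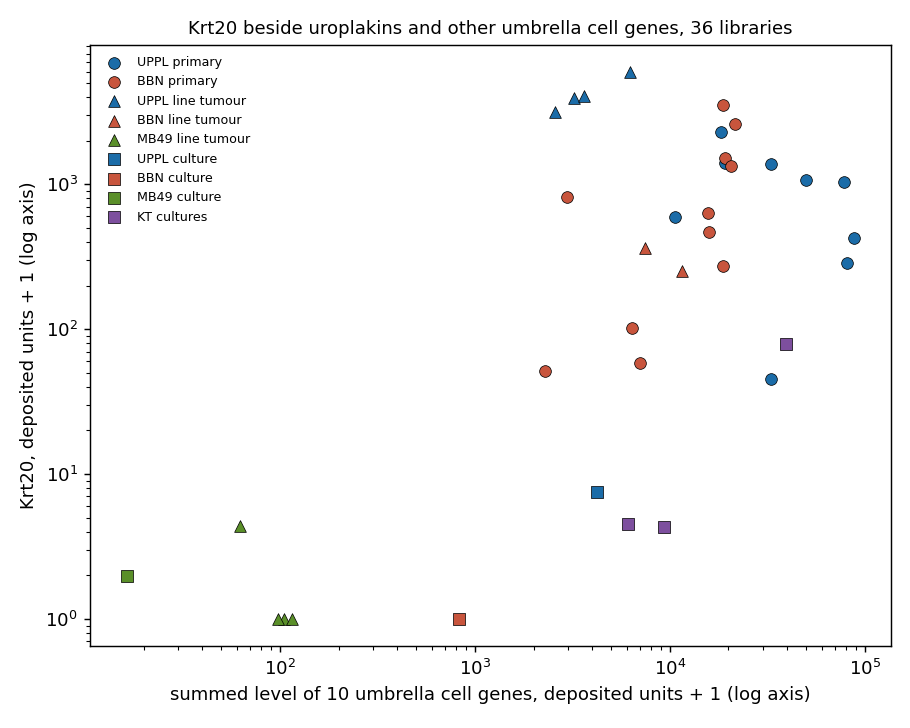
Krt20 (y axis) against the summed level of 10 umbrella cell genes (x axis), both in deposited units plus 1 on log axes, with 1 point per library, circles for primary tumours, triangles for line-derived tumours and squares for cultures. The 4 UPPL line-derived tumours have the highest Krt20 of their model (3140 to 5966) at umbrella gene sums of 2588 to 6265, below every UPPL primary tumour.

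In the BBN line-derived tumours 3 of the 5 keratins were lower than in BBN primary tumours, where 7.76 percent of genes passed (2.09 percent higher and 5.67 percent lower). Krt8 was 85.0 and 99.3 in the 2 line-derived tumours, both below the lowest primary tumour (169), and Krt18 was 103 and 172, both below the lowest primary tumour (207); 7.39 percent of genes lay likewise below all primary tumours and 5.42 percent above them. Their log2 fold changes were -3.88 (SE 0.980, adjusted p = 0.014) and -4.06 (SE 0.915, adjusted p = 0.0061). Krt19, at 1160 and 2423, was lower by -2.58 on the log2 scale (SE 0.728, adjusted p = 0.028). Krt7 (4640 and 13206) gave -1.55 (adjusted p = 0.15), and -1.86 without the primary tumour BBN972 (adjusted p = 0.0092). Krt20 (360 and 250) gave -0.70 (interval -3.25 to 1.86, adjusted p = 0.78). Krt8 was 67 and 81 reads and Krt18 was 81 and 140 reads in these 2 line-derived tumours. The most frequent low values of the 2 libraries were 19 and 9 reads, so these levels may rest on fewer independent reads than counted. With BBN963 tumour 1 left out, Krt8, Krt18 and Krt19 no longer passed (adjusted p = 0.22, 0.18 and 0.43), and without tumour 2 Krt8 and Krt19 did not (0.10 and 0.079), since a single tumour then stood for the line.

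Whether the models differed in this step was tested as an interaction, in which 9.22 percent of genes passed (8.16 percent positive and 1.06 percent negative). None of the 5 keratins passed in limma, 1 (Krt20) had an unadjusted p under 0.05, and none passed in edgeR. The difference of differences, UPPL over BBN, was 3.42 for Krt20 (SE 1.58, interval 0.17 to 6.66, adjusted p = 0.17) and 0.03 for Krt8 (interval -2.52 to 2.58).

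Most basal keratins and keratin anchors did not pass where Krt8 and Krt18 were lower. In UPPL line-derived tumours 3 of 11 basal and stratified keratins were higher, 1 lower and 7 not past the threshold. Krt5 (0.26) and Krt14 (1.37) were among the last. The median log2 fold change of the 11 was 1.61, against 0.37 over all genes. Krt10, a keratin of differentiating squamous cells, was higher (7.21, adjusted p = 0.00055) and Krt15 lower (-3.27, adjusted p = 0.0025). Among the 14 keratin-binding genes there was 1 higher, 2 lower and 11 that did not pass, with Plec lower (-1.31, adjusted p = 0.00036) and Dsp at 0.44. Of 10 urothelial regulators 6 were lower and 4 did not pass; Pparg (-6.07), Gata3 (-1.49), Foxa1 (-2.81) and Elf3 (-2.74) were lower. In BBN line-derived tumours Krt15 (-3.21) of the basal and stratified keratins, and Pparg (-4.86) and Grhl2 (-0.66) of the regulators, were lower. Vim, the filament gene of mesenchymal cells, was 3999 to 9113 in UPPL line-derived and 112 to 1194 in UPPL primary tumours (3.70, adjusted p = 3.7e-05).

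Fibroblast and leukocyte markers were higher in UPPL where these keratins were lower, and in BBN few of them passed. The 8 fibroblast markers summed to 77042 to 377721 in UPPL line-derived tumours, against 414 to 7969 in UPPL primary tumours, and all 8 were higher, Col1a1 by 7.12 and Col1a2 by 7.53. In BBN they summed to 88559 and 115266 in line-derived tumours, against 350 to 56230 in primary tumours, with 1 of 8 higher (Col1a1, 4.37) and 7 that did not pass. Leukocyte markers summed to 4635 to 7829 in UPPL line-derived and 254 to 1072 in UPPL primary tumours, with 6 of the 7 tested higher, and to 4023 and 4654 in BBN line-derived and 613 to 3433 in BBN primary tumours, with 1 of 7 higher. The 8 epithelial genes summed to 29463 to 37694 in UPPL line-derived and 45457 to 68058 in UPPL primary tumours, with 4 of 8 lower, Cdh1 by -1.01 and Cldn7 by -2.43, and Epcam at 0.29. The part of other cell types in the keratin differences was not tested.

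Between the line-derived tumours of different models, UPPL stood above BBN in 3 of the 5 keratins, where 28.8 percent of 14604 genes passed (21.4 percent higher and 7.37 percent lower). Krt8 (411 to 1166, against 85.0 and 99.3), Krt18 (486 to 571, against 103 and 172) and Krt20 (3140 to 5966, against 250 and 360) did not overlap between UPPL and BBN line-derived tumours, as was so, with UPPL higher, for 32.1 percent of genes, and for 13.8 percent with UPPL lower. Their log2 fold changes were 2.90, 2.01 and 3.79 (adjusted p = 0.00031, 0.00017 and 0.0015). In a fit over all 36 libraries the same differences did not pass (adjusted p = 0.061, 0.18 and 0.082). Krt7 and Krt19 did not pass (-0.68, interval -2.43 to 1.07, and 0.42, interval -1.45 to 2.30).

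Among line-derived tumours, those of MB49 stood apart from both other models in carrying much Krt8 and Krt18 and almost none of the other 3 keratins. Krt8 was 411 to 1166 in UPPL line-derived tumours and 85.0 and 99.3 in BBN line-derived tumours, against 10543, 13395, 10777 and 8023 in MB49 tumours. Krt18 was 486 to 571 in UPPL and 103 and 172 in BBN line-derived tumours, against 9246, 12684, 9699 and 7684 in MB49 tumours. The ratio of Krt18 to Krt8 stayed between 0.877 and 0.958 in MB49. Krt7 was 4550 to 5327 in UPPL line-derived tumours, against 0 to 10.4 in MB49 tumours, and Krt19 was 1625 to 3251 in UPPL, against 3.50 to 70.7 in MB49. Krt20 was listed at 0 in 3 of the 4 MB49 tumours and at 3.37 in the fourth. UPPL line-derived tumours were lower than MB49 tumours in Krt8 (-3.92, SE 0.296, adjusted p = 1.1e-06) and Krt18 (-4.16, SE 0.185, adjusted p = 1.6e-08), and higher in Krt7 (9.94, adjusted p = 3.7e-07), Krt19 (6.47, adjusted p = 1.9e-05) and Krt20. The UPPL over MB49 ratio of Krt20 was 5191 (95% counting interval 1776 to 25171). The 3 reads of MB49 all lay in its second tumour, in which 3 reads was also the most frequent low value. The counting interval takes them as independent reads, and is too narrow if they are not. All 5 passed, without overlap between the groups, where 49.9 percent of genes passed (27.3 percent higher and 22.6 percent lower), 26 percent lay wholly higher and 21.8 percent wholly lower.

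BBN line-derived tumours differed from MB49 tumours in the same directions. Krt8 (-6.82, adjusted p = 1.1e-07) and Krt18 (-6.18, adjusted p = 6.6e-09) were lower, Krt7 (10.62, adjusted p = 1.7e-06) and Krt19 (6.04, adjusted p = 0.0002) were higher, and the Krt20 ratio, over the same 3 reads, was 370.4 (counting interval 127 to 1796). All 5 passed, where 41.9 percent of genes passed (15.8 percent higher and 26.1 percent lower), 21.3 percent lay wholly higher and 32.2 percent wholly lower. Both comparisons share the MB49 tumours. Counting intervals cover counting error only and take the reads as independent. Leukocyte markers summed to 4635 to 7829 in UPPL and 4023 and 4654 in BBN line-derived tumours, against 12275 to 16245 in MB49 tumours, with 7 of 7 tested lower in UPPL and 5 of 7 lower in BBN. Fibroblast markers were higher in UPPL than in MB49 for 6 of 8 and in BBN for 2 of 8. The part of these cells in the keratin differences was not tested.

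MB49 tumours, labelled bladder tumours like the others, had little of the epithelial markers. The 8 epithelial genes summed to 342 to 481 units in MB49 tumours, with Rab25 and Esrp1 at 0 in all 4, Epcam at 0 to 2.13 and Cdh1 at 13.5 to 62.9, while Spint1, a protease inhibitor gene, made up most of the sum at 243 to 454. Dsp was listed at 0 to 1.17, Krt5 at 1.12 to 11.7, and the 11 basal and stratified keratins summed to 164 to 634. All 8 epithelial genes and all 11 basal and stratified keratins were higher in UPPL than in MB49 line-derived tumours. Vim stood at 62805 to 73349 in MB49 tumours, and Msln, a mesothelial marker, at 4154 to 6259, with the mesothelial markers Wt1 and Lrrn4 at 0 in all 4.

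Of the 5 keratins Krt20 differed most between tumours and culture of the same line, in UPPL and in BBN. It was 3140 to 5966 in the UPPL line-derived tumours, against 6.54 (7 reads) in the UPPL1541 culture, a ratio of 654 (95% counting interval 318 to 1628). In BBN it was 360 and 250 in tumours and listed at 0 in the culture, at least 83.6-fold higher when the culture is set at a floor of 3 reads per library. In MB49 the 4 tumours held 3 reads of Krt20 in all and the culture 1 read, at or under that floor, so no fold is given. Pooled over the 3 lines with line as a factor, Krt20 was higher in tumours than in cultures (5.48, SE 1.33, adjusted p = 0.008) and Krt18 lower (-2.36, SE 0.708, adjusted p = 0.025). These were 2 of the 5 keratins, where 29.1 percent of 14321 genes passed (20.1 percent higher and 8.99 percent lower), and neither passed with the UPPL1541 or the BBN963 culture left out (adjusted p = 0.05 to 0.18).

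Taken line by line, a split chosen after the values were seen, the Krt8 and Krt18 pair stood below the culture in UPPL and BBN tumours and above it in MB49 tumours. Each line had 1 culture, so the spread between cultures was not measured. The p-values of this split use the spread of the tumours and assume that a culture varies as they do. In UPPL, Krt8 was 411 to 1166 in tumours and 3768 in culture (-2.45, SE 0.460, adjusted p = 0.0026), and Krt18 was 486 to 571 in tumours and 5444 in culture (-3.33, SE 0.287, adjusted p = 1e-05). In BBN, Krt8 was 85.0 and 99.3 in tumours and 3580 in culture (-5.27, adjusted p = 2.8e-05), and Krt18 was 103 and 172 in tumours and 4462 in culture (-5.06, adjusted p = 1.3e-06). In MB49, Krt8 was 8023 to 13395 in tumours and 2325 in culture (2.18, adjusted p = 0.004), and Krt18 was 7684 to 12684 in tumours and 5265 in culture (0.88, adjusted p = 0.037). Under the same assumption an F test of whether the 3 lines differed passed for Krt8 (adjusted p = 7e-05), Krt18 (1.3e-05), Krt19 (0.0082) and Krt20 (0.00048), and not for Krt7 (0.10), where 22.4 percent of genes passed. Within UPPL 4 of the 5 keratins passed, 3 lower and 1 higher, where 25.6 percent of genes did (17.4 percent higher and 8.18 percent lower). Within BBN 3 passed, where 22.9 percent did (11.5 percent higher and 11.4 percent lower), and within MB49 3 passed, all higher, where 31.1 percent did (24.1 percent higher and 7 percent lower).

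**Figure D5:**
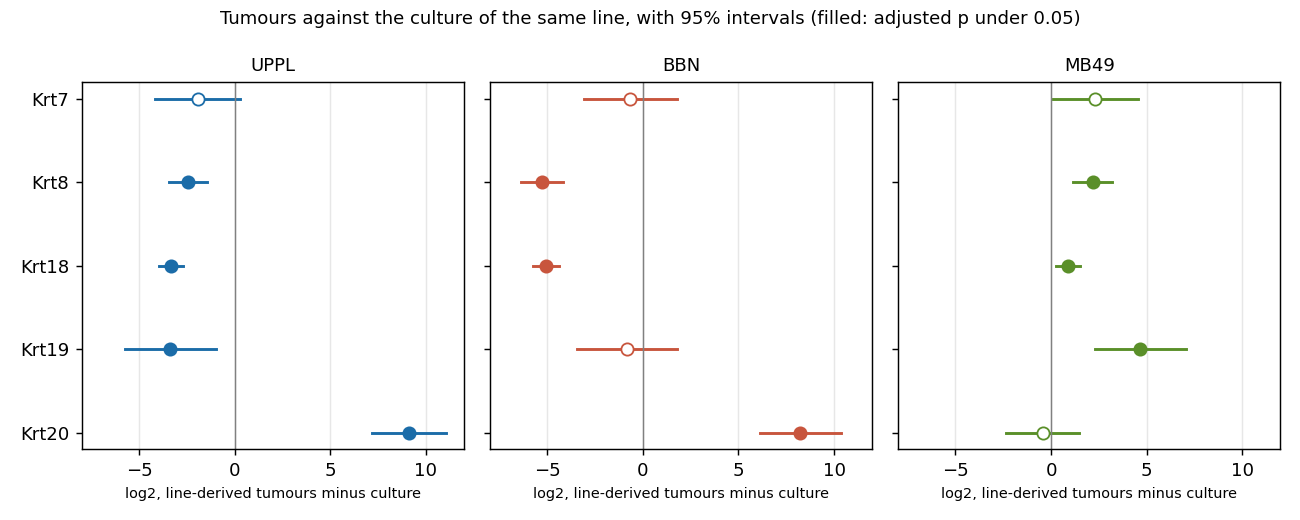
log2 difference between line-derived tumours and the culture of the same line (x axis) for each keratin, with its 95% interval, in UPPL (4 tumours), BBN (2 tumours) and MB49 (4 tumours), each against 1 culture whose spread is assumed to be that of the tumours; filled points passed at an adjusted p under 0.05. Krt8 and Krt18 lie below 0 in UPPL and BBN and above 0 in MB49, and Krt20 lies above 8 in UPPL and BBN and near 0 in MB49.

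Krt19 and Krt7 had their own patterns. Krt19 was 1625 to 3251 in UPPL tumours and 23306 in the UPPL1541 culture (-3.37, SE 1.09, adjusted p = 0.041 under the same assumption), and it was 1160 and 2423 in BBN tumours and 2996 in culture (-0.84, adjusted p = 0.65). In MB49 Krt19 was 3.50 to 70.7 in tumours and listed at 0 in culture, a mean at least 12.6-fold higher than that culture at a floor of 3 reads. Krt7 did not pass in any of the 3 lines. It was 4550 to 5327 in UPPL tumours and 18625 in culture, and 4640 and 13206 in BBN tumours and 12380 in culture.

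Markers of host cells stood far higher in the tumours. In tumours against cultures pooled over lines, all 8 fibroblast markers were higher, as were all 7 leukocyte markers tested and all 6 endothelial markers, among them Pecam1 (5.61) and Cdh5 (7.86). Over the 3 cultures fibroblast sums were 456 to 1514. In UPPL tumours Cdh1 (9795 to 11902, against 33287 in culture) and Epcam (3847 to 4730, against 16877) were lower. Krt5 (117621 to 135422, against 67387) and Krt14 (115327 to 184962, against 36994) were not lower in UPPL tumours. In BBN tumours Epcam was lower (2360 to 3288, against 6960 in culture), and the culture's Cdh1 (9955) lay within the tumour range (9048 to 11806). Of the 11 basal and stratified keratins 8 were higher in tumours than in cultures in the pooled fit, Krt14 (3.61), Krt6b (3.76) and Krt1 (7.56) among them. The part of host cells in the keratin differences was not tested.

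The 3 KT cultures held all 4 simple keratins at high levels and little Krt20. Krt7 was 61659, 24718 and 19401 in KT1044, KT1970 and KT1975, and Krt19 was 46210, 14209 and 10731. Krt8 was 19614, 9574 and 11134, and Krt18 was 27052, 10172 and 10142. Krt20 was 77.7, 3.30 and 3.56. KT1044 was highest in all 5. The lines shared Upk1b at 2132 to 19542 and Msln at 9187 to 15398, while the mesothelial marker Lrrn4 was at 0 in all 3, Wt1 at 0 to 1.11, and the 11 basal and stratified keratins summed to 115576 to 158042.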

How the data were processed

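Total RNA of 36 libraries was extracted with an RNeasy kit and made into stranded mRNA libraries, per the labels' protocols. Per the submitters' processing notes, RSEM, Picard 1.64, SAMtools and mm9 were used, in roles the notes do not state. The deposited signal values are RSEM gene estimates, scaled by the authors to an upper quartile of 1000 among the values above 0 of a library (as the values show). Divided by what a single read is worth in its library, 92.1 to 96.3 percent of values above 0 and under 1000 units came out whole within 0.02. All values were then rounded to whole reads, which are the recovered reads. In 9 of 36 columns the lowest values also held fractions of a read. Low values were mostly 1 read in cultures and 2 to 19 reads in tumours, so a low value rests on fewer independent reads in tumours.

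Tests used log2(value + 1), which understates the change of low genes. The model was limma 3.58.1 with a trend (R 4.3.3), and a gene passed when its two-sided p, adjusted by Benjamini-Hochberg over all genes tested, was under 0.05. Primary tumours were fitted alone; the 3 line-derived groups shared a fit, as did the 4 UPPL and BBN tumour groups and the tumours and cultures of the 3 lines, with line as a factor. The KT cultures entered no test. Correlations used exact permutations for 9 tumours or fewer and 100000 permutations for 11. edgeR 4.0.16 (quasi-likelihood, recovered reads) was an alternative, with other pseudocounts, filters, scalings and samples. Nothing says that samples of a group came from separate animals beyond their numbers, so p-values measure the spread between these samples. On simulated data for the primary comparison, limma recovered 54 percent of the genes changed 2-fold and 81 percent of those changed 4-fold. For UPPL against BBN line-derived tumours these were 26 and 69 percent, and for UPPL line-derived against primary tumours 33 and 72 percent. For line-derived tumours against cultures they were 50 and 83 percent. There the same shift was given to all 3 lines, so recovery may be overstated for genes whose change differs between lines. The changed genes were drawn from those above a minimum mean level.

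The 5 keratins and the gene lists were chosen with earlier results of these data known. The named genes are the 5 keratins, the first 2 of a list with the 2 others of smallest adjusted p among those that passed, and the 3 genes of likest pattern for each keratin, leaving out predicted, Riken and receptor segment symbols. Krt1, Krt6b, Krt15, Muc1, Cldn7, Esrp1, Rab25, Spint1, Lrrn4 and the levels of some listed genes are named beyond that rule, after their values were seen. Promoter sequences came from RefSeq, which matched 4 of the 5 keratins. Line-derived tumours of the same number were not more alike across lines (8 correlations, -0.09 to 0.07) than those of other numbers (24 correlations, -0.07 to 0.09). The deviations of the 2 BBN tumours from their mean mirror each other, so the check could show little for BBN. Part of the genotype label is not reported here. Tables and figures were made in Python 3.11.15 (matplotlib 3.10.9, numpy 2.4.6, pandas 2.3.3, scipy 1.17.1).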

Additional observations from a re-analysis of the deposited data

Results flagged for a closer look

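Krt19 in the primary tumour UPPL1595 was 3953 units, far below the next lowest of the 9 UPPL primary tumours (20794). Krt20 in the second MB49 tumour was 3.37 units, while the other 3 MB49 tumours were listed at 0. That value is 3 reads, and with 3 values at 0 any value above 0 stands apart by construction. These were 2 of 15 groups of values examined for a sample apart from the rest, and chance gives about 1 in 20. The 11 BBN primary tumours and the groups of 3 or fewer libraries were not examined in this way. Among those BBN tumours, BBN972 lay far below the next lowest in Krt7 (2607, against 18722.5) and in Krt19 (1054, against 7554). The difference between line-derived tumours and culture passed a test across UPPL, BBN and MB49 for Krt8 (F test in limma, adjusted p = 7e-05), Krt18 (adjusted p = 1.3e-05), Krt19 (adjusted p = 0.0082) and Krt20 (adjusted p = 0.00048). Krt8 and Krt18 were lower in UPPL and BBN tumours and higher in MB49 tumours than in the culture of the line. Each line had 1 culture, so the spread between cultures was not measured and these p-values rest on the spread of the tumours.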

How the results depend on the processing

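Of 419 recomputed values other than those that leave out 1 library, 378 kept their direction and their side of the threshold. Krt8 and Krt18 between UPPL and BBN primary tumours did so under every alternative run. Krt19 there passed under median-of-ratios scaling (1.33), in edgeR (1.27) and without libraries of high lowest counts (1.44), and ran 0.88 to 1.53 leaving out 1 library; Krt20 turned to -0.0031 in edgeR. For UPPL against BBN line-derived tumours, the fit over all 36 libraries called 1617 genes in place of 4208, and Krt8 (2.90), Krt18 (2.01) and Krt20 (3.79) did not pass; BBN against MB49 then called 3772 in place of 6121. A replicate block on the tumour number gave 2682 calls for UPPL against BBN and changed no keratin call. Tumours of the same number were not more alike than others. Leaving out 1 library gave 2555 to 4436 calls, Krt7 -1.43 to 0.075 and Krt19 -0.11 to 0.95. Krt20 in UPPL line-derived over primary tumours did not pass under median-of-ratios scaling (2.54), in edgeR (1.93) or without UPPL1541 and BBN963 (2.58), and ran 2.24 to 2.95. For BBN, edgeR called 729 genes in place of 1182, and leaving out 1 library gave 232 to 1520 calls, Krt7 -2.31 to -0.80, Krt8 -4.18 to -3.60, Krt18 -4.43 to -3.69 and Krt19 -3.11 to -2.05. The interaction called 1404 genes, 760 under quantile normalization, 412 in edgeR and 296 to 1680 leaving out 1 library, with Krt8 at -0.065 (pseudocount 10), -0.16 (quantile), -0.29 (median-of-ratios) and -0.26 to 0.33, and Krt18 at -0.62 to 0.11. In tumours against cultures, Krt19 turned to -0.75 (pseudocount 10), -0.48 (quantile) and -1.63 (edgeR), Krt20 did not pass under quantile normalization (3.72), and Krt8 passed in edgeR (-2.73); leaving out 1 library gave Krt7 -1.35 to 0.96, Krt8 -3.73 to -0.13, Krt18 -4.12 to -1.23, Krt19 -2.22 to 2.17 and Krt20 3.50 to 8.71. Line by line, added after seeing the data, Krt8 was -2.45 (UPPL), -5.27 (BBN) and 2.18 (MB49), Krt19 -3.37, -0.84 and 4.67, and in MB49 Krt7 was 2.32, Krt18 0.88 and Krt20 -0.44. Without the 2 farthest tumours, r in UPPL was 0.853 for Krt7 and Krt8, 0.921 for Krt8 and Krt18 and -0.0877 for Krt18 and Krt19; in BBN it was -0.265, -0.775 and -0.732 for Krt7 with Krt18, Krt19 and Krt20, -0.141 for Krt8 and Krt20 and 0.654 for Krt19 and Krt20. The cause of these changes was not tested. The higher share of calls was 74.4 percent for UPPL against BBN line-derived tumours, 77.4 percent for UPPL and 26.9 percent for BBN line-derived against primary tumours, 88.5 percent in the interaction and 69.1 percent for tumours against cultures, and 49.8, 48.8, 36.3, 53.4 and 45.4 percent under quantile normalization. Depth limits the keratins at few reads, Krt7, Krt19 and Krt20 in MB49 and Krt20 in cultures. It also limits Krt8 (67 and 81 reads) and Krt18 (81 and 140 reads) in BBN line-derived tumours.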
